A study of Oryctolagus cuniculus with 12 samples.

Results

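Of 9 genes of B cells, plasma cells and T cells, 6 had a row in the gene table, out of 14621 genes in all: JCHAIN, MS4A1, CD79B, PAX5, SLAMF6 and IL7R. They were found by their symbol, which for SLAMF6 came through its Entrez gene identifier. CD79A, CD3E and CD2 are not analysed here. RNA was sequenced in bulk from the temporomandibular joint, the jaw joint, of wild-type rabbits (Oryctolagus cuniculus). There were 4 groups of 3 libraries: osteoarthritis (OA) condylar cartilage, control condylar cartilage, OA superficial zone, which is the surface layer, and control superficial zone. OA was induced by surgery in which a punch made a 2.5 mm hole in the posterior-lateral part of the articular disc. The labels do not say whether control joints were operated on, which animals gave which library, how old they were or how long after surgery tissue was taken.

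In human and mouse, B cells mature in the bone marrow, carry membrane antibody as their antigen receptor, and become antibody-secreting plasma cells once activated. T cells mature in the thymus and read peptide antigens through a receptor coupled to the CD3 proteins. Healthy articular cartilage has no blood vessels, whereas the marrow beneath it, the synovium and blood hold lymphocytes. The roles given below are those known in human and mouse.

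Libraries held 7326255 to 16769536 counts, of which the 6 genes took 41 to 1158. Levels are counts per 1000000 (CPM) of the library total scaled by a TMM factor, and a count of 0 in a library allows up to 3 counts, or 0.162 to 0.456 CPM (counting error only). OA cartilage 1 and 2 differed by a biological coefficient of variation of only 0.0572, and OA superficial zone 2 and 3 by 0.0404, where other pairs within a group differed by 0.199 to 0.580; a value above 0 is variation beyond counting noise, and all are labelled as biological replicates. Each such near-duplicate pair was counted as 1 sample, so that n was 2 in the OA groups and 3 in the control groups. Against their labels, control cartilage 3 had 6 cartilage genes (such as COL2A1) at a summed 1500 CPM, below every superficial zone library, and OA superficial zone 1 had them at 67810 CPM. Skeletal muscle genes summed to 1816 CPM in control cartilage 3 and to 1340 and 1322 CPM in OA superficial zone 2 and 3, and to at most 179 CPM elsewhere. The cartilage genes of the other libraries were at 17170 to 73580 CPM in cartilage and 4929 to 18120 CPM in the superficial zone. Below, libraries that went against their labels means these 2, judged by the cartilage genes. The member IL7R kept to the labels, at 4.16 CPM in control cartilage 3 and 0.138 CPM in OA superficial zone 1. Results of members are also given without these 2 libraries where stated, and those of other list genes are not. In bulk tissue, fewer cells of a type and less RNA per cell cannot be told apart.

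Mean levels were highest in OA cartilage for all of the 6 genes but IL7R. Their summed level was 59.7, 64.0 and 26.3 CPM in OA cartilage, 6.23, 5.57 and 23.3 CPM in control cartilage, 17.4, 3.68 and 3.77 CPM in OA superficial zone, and 7.02, 6.35 and 5.35 CPM in control superficial zone. The OA cartilage libraries thus lay above all 9 others, and control cartilage 3 and OA superficial zone 1 came next. PAX5 alone was at 12.25 CPM in control cartilage 3, 11.3 CPM in OA superficial zone 1 and 3.46 to 6.46 CPM in control superficial zone. It made up much of the sum in those libraries. Counts were low. CD79B was at 0 in 5 of 12 libraries, and SLAMF6 reached 10 counts in 3 libraries, all of them OA cartilage. A gene kept by a filter on low counts through the group where it is high had to differ, so counts of members below describe the 6 genes found and give no support beyond each gene's own test.

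**Figure D1:**
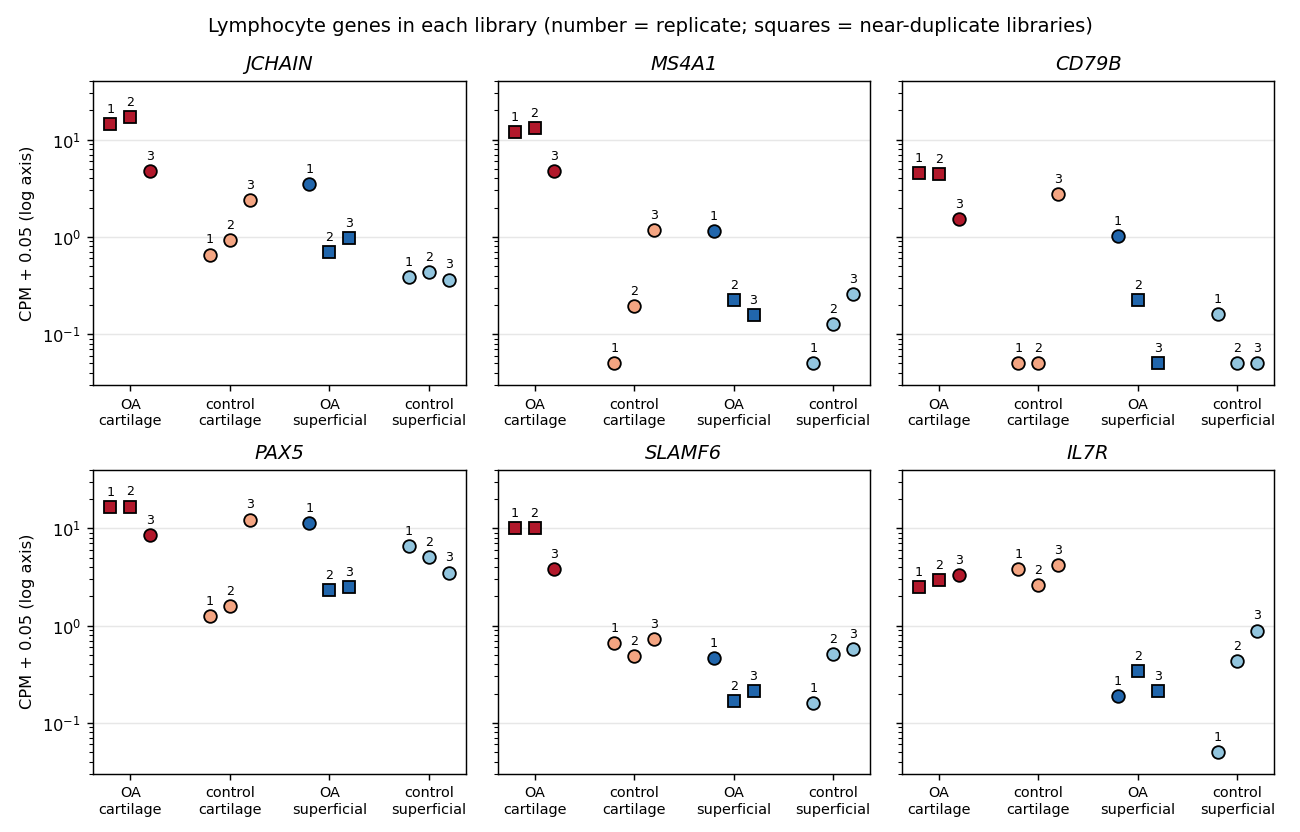
Level of each of the 6 lymphocyte genes in each library, in CPM plus 0.05 on a log axis; numbers are replicates, squares mark near-duplicate libraries, and colours mark the 4 groups. JCHAIN, MS4A1 and SLAMF6 are higher in all 3 OA cartilage libraries than in the other 9, while IL7R separates cartilage from superficial zone in both states.

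The first question was which lymphocyte genes differed between OA and control in the condylar cartilage. SLAMF6, a receptor on T, B and NK cells that binds its own kind on neighbouring cells, rose. It was at 10.03, 10 and 3.73 CPM in OA cartilage libraries 1 to 3, against 0.608, 0.440 and 0.674 CPM in control cartilage. The groups did not overlap, and the means were 6.73 ± 4.36 CPM in OA (SD, n = 2) and 0.562 ± 0.118 CPM in control (SD, n = 3). The log2 fold change was 3.59 ± 0.71 (SE; edgeR adjusted p = 0.0439). SLAMF6 was the 1 member of 6 past the test, in a comparison where 0.817% of 14438 genes tested were called higher and 0.866% were called in either direction. The call was lost without any 1 of the 6 control libraries: the adjusted p was 0.195, 0.183 and 0.0588 without control cartilage 1, 2 and 3, and 0.0527, 0.0790 and 0.0702 without control superficial zone 1, 2 and 3, while the fold change stayed between 3.41 and 3.74 in these fits.

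The plasma cell gene JCHAIN, whose product joins antibody units into IgM pentamers and IgA dimers, was at 14.4, 16.9 and 4.74 CPM in OA cartilage, against 0.608, 0.879 and 2.36 CPM in control cartilage. The groups did not overlap, with control cartilage 3 the highest control. Its log2 fold change of 2.99 ± 0.76 did not pass (edgeR adjusted p = 0.117). It passed with 12 separate libraries, where near-duplicates count as replicates (3.21, edgeR adjusted p = 0.0285), and in DESeq2 (3.00, adjusted p = 0.0175). Without both libraries that went against their labels its log2 fold change was 3.72. The 12-library call was lost with a replicate block (3.09, edgeR adjusted p = 0.0657).

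MS4A1 encodes the B cell surface protein CD20. It was at 11.9, 13.2 and 4.67 CPM in OA cartilage, against 0, 0.147 and 1.12 CPM in control cartilage. All 3 OA libraries were higher than the controls, which held 12 counts in all. The log2 fold change was 4.32 ± 1.12 (edgeR adjusted p = 0.128), and 6.41 (adjusted p = 0.0322) without control cartilage 3. It also passed with 12 separate libraries (4.51, adjusted p = 0.0287) and in DESeq2 (4.34, 0.00974), and the 12-library call was lost with a replicate block (4.51, edgeR adjusted p = 0.0639). JCHAIN, MS4A1 and SLAMF6 were the 3 of 6 members whose samples did not overlap with those of control and were higher, which held for 16.8% of all genes tested.

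For both other B cell genes, control cartilage 3 overlapped with OA cartilage. CD79B, the signalling partner of the B cell antigen receptor, was at 4.46, 4.37 and 1.49 CPM in OA cartilage, against 0, 0 and 2.696 CPM in control cartilage. All 24 control counts thus came from control cartilage 3. The log2 fold change was 1.73 ± 1.42 (edgeR adjusted p = 0.831). PAX5, the transcription factor that commits cells to the B lineage, was at 16.4, 16.7 and 8.47 CPM in OA cartilage, against 1.22, 1.54 and 12.2 CPM in control cartilage (1.33 ± 0.88, edgeR adjusted p = 0.745). Without control cartilage 3, PAX5 had 3.16 (adjusted p = 0.0634) and CD79B was at 0 in both controls left (adjusted p = 0.0825). Without OA superficial zone 1 as well, both passed (edgeR adjusted p = 0.00512 for PAX5 and 0.0191 for CD79B), and 5 of the 6 members then passed.

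IL7R, the alpha chain of the receptor for the lymphocyte survival factor IL-7, did not share this pattern. It was at 2.45, 2.87 and 3.25 CPM in OA cartilage, against 3.801, 2.56 and 4.16 CPM in control cartilage. The groups overlapped, with a log2 fold change of −0.24 ± 0.76 (edgeR adjusted p = 0.969), or 0.02 when scaled by library totals only. Over the 6 genes, 5 log2 fold changes were positive with a median of 2.36, beside a median of −0.03 over all genes tested.

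**Figure D2:**
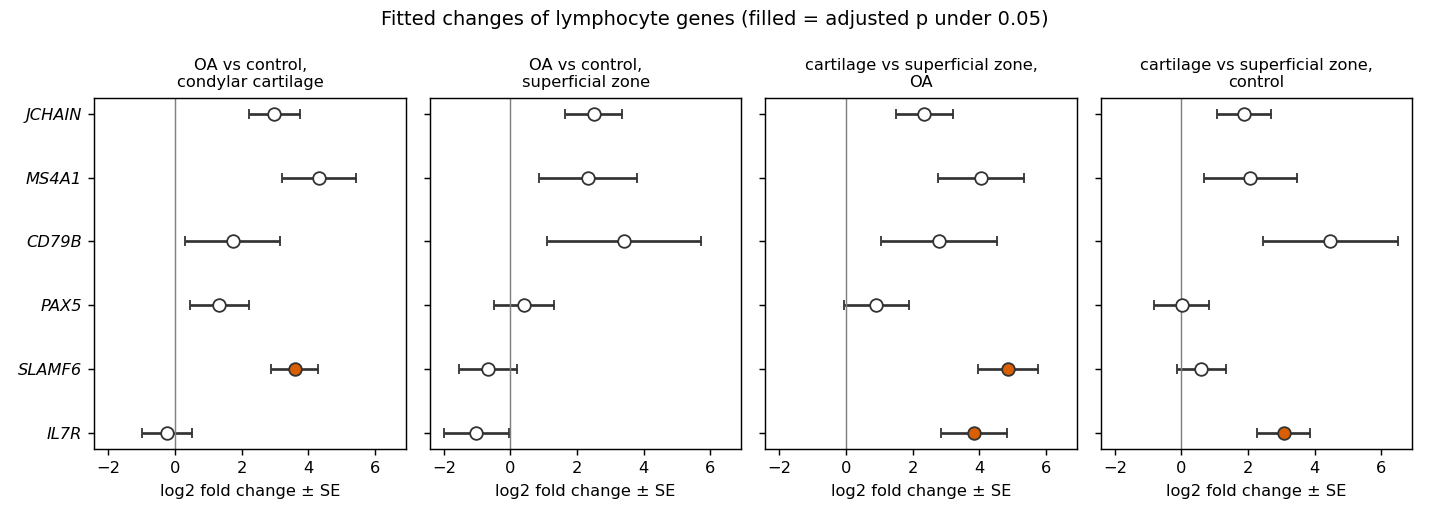
Fitted log2 fold change ± SE of the 6 lymphocyte genes in 4 comparisons (x axis; genes down the page), with filled points for an edgeR adjusted p under 0.05. SLAMF6 is filled for OA against control in cartilage, SLAMF6 and IL7R for cartilage against superficial zone in OA, and IL7R for the same in control.

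Per length, in the deposited transcripts per 1000000 (TPM), JCHAIN was the most abundant of the 6 in OA cartilage, with a median of 59.1 TPM and a range of 17.9 to 69.8 TPM. CD79B followed at 14.1 TPM (5.41 to 15.9), PAX5 at 12.7 TPM (3.33 to 14.1), SLAMF6 at 11.7 TPM (4.11 to 12.5), MS4A1 at 6.50 TPM (2.33 to 7.25) and IL7R at 3.73 TPM (3.15 to 3.83). JCHAIN lay above the whole range of the other 5, while every further neighbour in this order overlapped with the next. In control cartilage the order was another one: IL7R had the highest median, 4.10 TPM, followed by JCHAIN at 3.52 TPM (2.08 to 8.98), and MS4A1 and CD79B had medians of 0.0780 and 0 TPM.

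Within OA cartilage the members did not keep 1 ratio between samples. The summed sample of libraries 1 and 2 exceeded library 3 by 3.30 times for JCHAIN, 2.96 for CD79B, 2.69 for SLAMF6, 2.68 for MS4A1 and 1.95 for PAX5, whereas IL7R stood at 0.819 times. Marker lists of other cell types moved with these samples. The summed level of 10 neutrophil and marrow genes was 3.28 times as high in the summed sample as in library 3, and that of 7 erythroid genes 3.34 times. For 12 macrophage genes the same ratio was 1.06, and for the 6 cartilage genes 0.543.

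**Figure D3:**
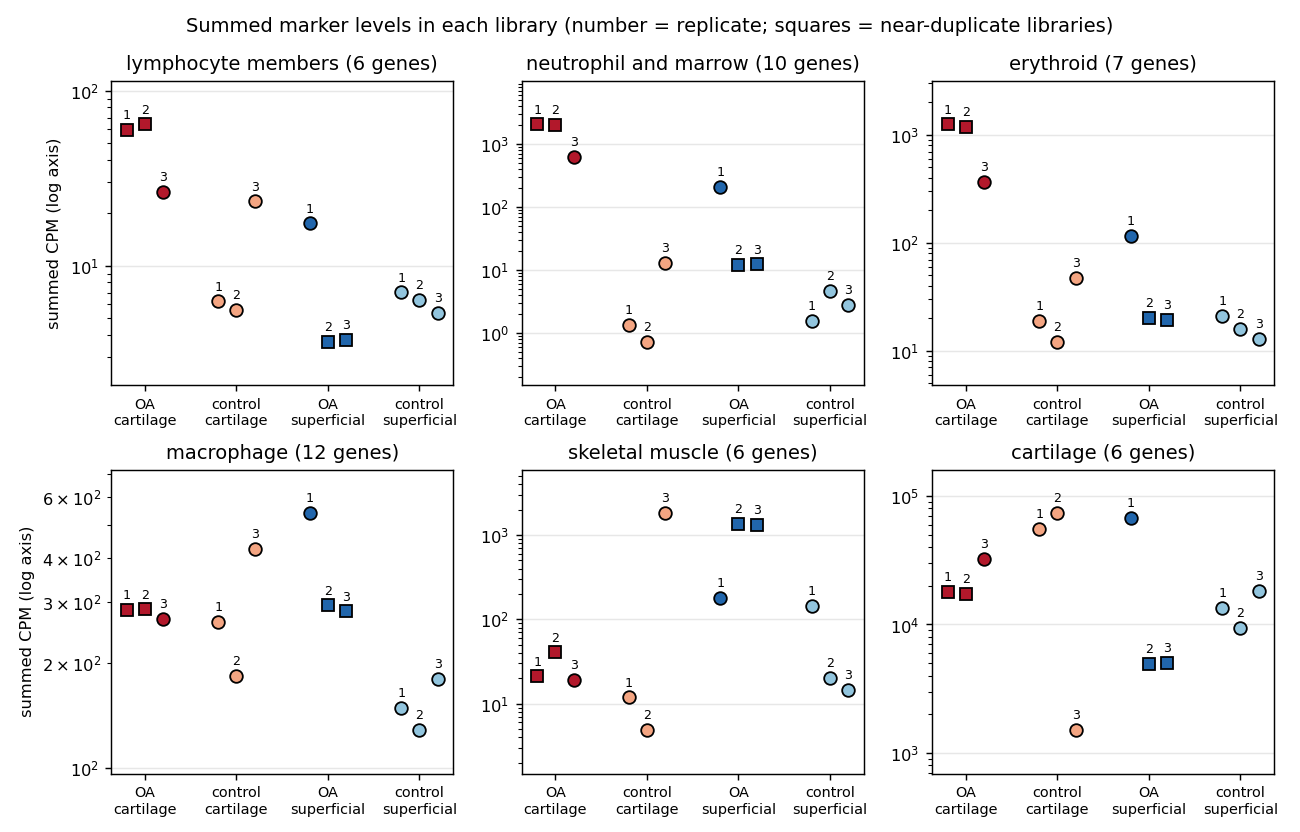
Summed CPM per library (log axes that differ between panels) for the 6 lymphocyte genes and for 5 marker lists; numbers are replicates and squares mark near-duplicates. The neutrophil and marrow and the erythroid sums are highest in the 3 OA cartilage libraries, at 618 to 2038 CPM and 366 to 1249 CPM, and OA superficial zone 1 comes next in both.

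Across groups, the neutrophil and marrow list summed to 618 to 2038 CPM in OA cartilage, 0.733 to 12.8 CPM in control cartilage, 12.2 to 207 CPM in OA superficial zone and 1.56 to 4.66 CPM in control superficial zone. MMP8 was the gene of this list at 0 in all 6 control libraries. The erythroid list summed to 366 to 1249 CPM in OA cartilage, 12.2 to 47.0 CPM in control cartilage, 19.3 to 116 CPM in OA superficial zone and 12.9 to 21.2 CPM in control superficial zone. Of 10 neutrophil and marrow genes, all 10 had positive fold changes in OA cartilage and 9 passed the test. They included CAMP (log2 fold change 8.04 ± 1.19), S100A8 (7.77 ± 1.23), LTF (8.20 ± 1.33), MPO (6.57 ± 1.12) and PGLYRP1, which had 1767 counts in OA and 2 in control (ratio 507, exact binomial 95% interval 140 to 4191, counting error only). All 7 erythroid genes had positive fold changes and 5 passed: ALAS2 (4.77 ± 0.77), EPB42 (4.44 ± 0.74), AHSP (6.71 ± 1.31), GATA1 (6.36 ± 1.27) and RHAG, with 1160 counts in OA and 1 in control (ratio 666, 119 to 26320). The part of marrow or blood cells in the lymphocyte values was not tested.

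The wider lymphocyte lists hold the members and other genes of these lineages. Of 13 B cell genes tested, MS4A1, CD79B and PAX5 included, none passed in OA cartilage in edgeR. Of these, 12 were positive, beside 47.7% of all genes tested, and the median log2 fold change was 1.72. CD37, a membrane protein of mature B cells and other leukocytes, was at 26.2, 30.3 and 10.8 CPM in OA cartilage, against 3.50, 1.98 and 6.07 CPM in control cartilage (2.36 ± 0.52, edgeR adjusted p = 0.0703). CIITA, the master regulator of MHC class II genes, had 1.72 ± 0.82 (adjusted p = 0.575), and BTK, a kinase downstream of the B cell receptor, 1.57 ± 0.53 (0.294). The 1 negative gene was the kinase BLK, at 8.08, 6.79 and 6.71 CPM in OA cartilage, against 10.5, 10.6 and 10.7 CPM in control cartilage (−0.58 ± 0.84, edgeR adjusted p = 0.930); it was named after its values were seen.

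Genes of B cell precursors were also found in OA cartilage. RAG1, which with RAG2 cuts antigen receptor genes for recombination, was at 3.23, 4.31 and 1.08 CPM in OA cartilage, against 0, 0.0733 and 0.899 CPM in control cartilage. Its log2 fold change of 2.90 ± 1.11 did not pass (edgeR adjusted p = 0.423). IGLL1, a surrogate light chain of pre-B cells, was at 3.57, 3.65 and 3.05 CPM in OA cartilage, against 0, 0 and 4.04 CPM in control cartilage, so that again control cartilage 3 held every control count (1.31 ± 1.40, edgeR adjusted p = 0.893). RAG2 and DNTT, which adds bases at receptor gene junctions, were too low to be tested. RAG2 was at 0.813 to 1.89 CPM in OA cartilage, against 0, 0 and 0.899 CPM in control cartilage, so the groups overlapped. DNTT was at 0.745 to 1.78 CPM in OA cartilage, against 0.304, 0 and 0.337 CPM in control cartilage. None of the 4 precursor genes tested passed. The most abundant were EBF1 (0.27 ± 0.46, edgeR adjusted p = 0.942), which mesenchymal cells also express, and ARPP21 (0.88 ± 1.01, 0.912). ARPP21 was at 0.881 to 2.23 CPM in OA cartilage and higher in OA superficial zone, at 2.28 to 3.73 CPM. RAG1, RAG2 and DNTT were named after their values were seen.

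Among 9 plasma cell genes, JCHAIN included, none passed in OA cartilage, 7 were positive and the median was 0.88. IGHM, the heavy chain of IgM, was at 296, 276 and 95.3 CPM in OA cartilage, against 4.71, 3.74 and 85.3 CPM in control cartilage (2.61 ± 1.34, edgeR adjusted p = 0.613). PRDM1, a driver of plasma cell fate that other cells also use, had −0.58 ± 0.39 (adjusted p = 0.755), and the surface proteoglycan SDC1, also made by epithelial and fibrous cells, −0.09 ± 0.49 (0.983). Of 27 genes on the T cell list only 6 had a row in the gene table, SLAMF6 and IL7R included. SLAMF6, found on B and NK cells too, was the 1 of these 6 that passed, and the median was 0.99. LAT, an adaptor of T cell receptor signalling, had 0.84 ± 0.66 (edgeR adjusted p = 0.810), the T cell kinase LCK 1.52 ± 1.00 (0.734) and TCF7, a Wnt-responsive factor used in many tissues, −0.50 ± 0.51 (0.883). LCK was at 2.12, 2.26 and 0.610 CPM in OA cartilage, against 0.608, 0.440 and 0.449 CPM in control cartilage. Of 12 genes on the cytotoxic list 1 had a row, NKG7 of cytotoxic granules. NKG7 was at 8.36, 9.89 and 2.37 CPM in OA cartilage, against 0.304, 0.586 and 0.112 CPM in control cartilage (4.01 ± 1.02, edgeR adjusted p = 0.117).

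**Figure D4:**
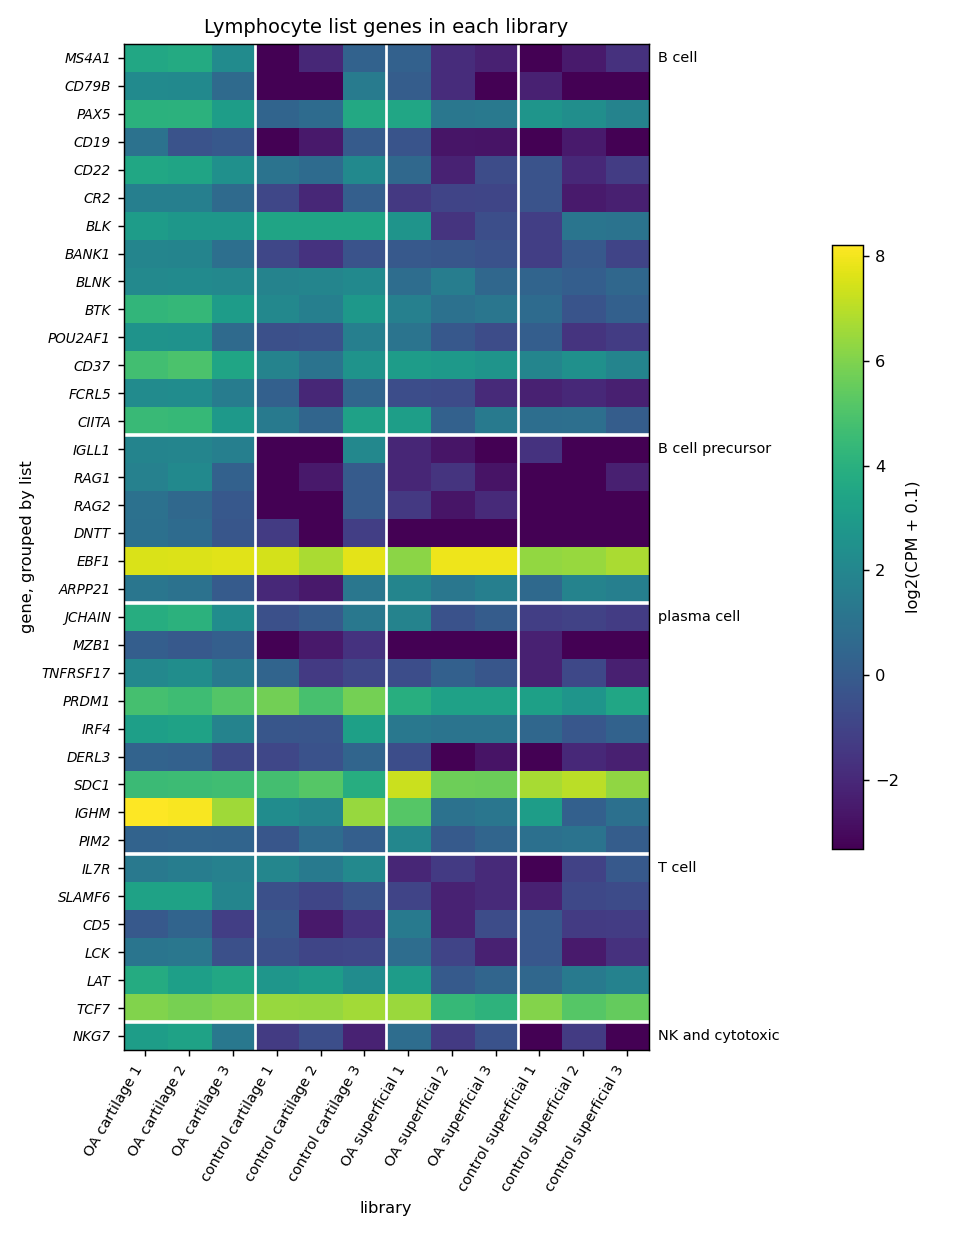
Heat map of log2(CPM + 0.1) for the B cell, B cell precursor, plasma cell, T cell and cytotoxic genes in the table (rows) in the 12 libraries (columns, by group). IGHM, SLAMF6 and NKG7 are brightest in the 3 OA cartilage libraries, and control cartilage 3 holds IGHM, IGLL1 and CD79B at levels not seen in its partners.

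All 8 pan-leukocyte genes had positive fold changes and 1 passed, CD48, a partner of CD2 on lymphocytes and other leukocytes. It was at 31.2, 32.4 and 14.3 CPM in OA cartilage, against 2.89, 3.59 and 5.84 CPM in control cartilage (2.49 ± 0.49, edgeR adjusted p = 0.0439). No gene of the macrophage, cartilage, skeletal muscle and endothelial lists passed in this comparison in edgeR.

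In the superficial zone, no lymphocyte gene passed for OA against control, where edgeR called 0.0208% of genes in either direction. At an unadjusted p under 0.05, 1 of the 6 members and 11.1% of all genes counted, and none of the 6 passed in DESeq2. JCHAIN was at 3.45, 0.642 and 0.916 CPM in OA superficial zone, against 0.334, 0.382 and 0.315 CPM in control superficial zone. It was the 1 member of 6 whose groups did not overlap and were higher in OA, beside 12.3% of all genes (2.50 ± 0.85, edgeR adjusted p = 0.330). Without OA superficial zone 1, the highest library, its log2 fold change was 1.16.

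OA superficial zone 1 was also the highest OA superficial zone library for PAX5, MS4A1 and CD79B, with only 8 counts for MS4A1 and 7 for CD79B. PAX5 was at 11.3, 2.28 and 2.42 CPM in OA superficial zone, against 6.46, 5.05 and 3.46 CPM in control superficial zone. The log2 fold change was 0.42 ± 0.91 (edgeR adjusted p = 0.846), −1.08 without OA superficial zone 1, and −0.09 when scaled by library totals only. PAX5 was the member with the highest level in control superficial zone, at 157 counts there beside 3 for MS4A1 and 1 for CD79B. Whether B cells gave these PAX5 counts was not tested. MS4A1 was at 1.104, 0.175 and 0.108 CPM in OA superficial zone, against 0, 0.0765 and 0.210 CPM in control superficial zone, on 13 and 3 counts (ratio 3.19, 95% interval 0.878 to 17.5). CD79B was at 0.966, 0.175 and 0 CPM in OA superficial zone, against 0.111, 0 and 0 CPM in control superficial zone, on 10 counts and 1 count (ratio 7.37, 1.05 to 320).

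SLAMF6 and IL7R were near the limit of detection in the superficial zone. SLAMF6 was at 0.414, 0.117 and 0.162 CPM in OA superficial zone, against 0.111, 0.459 and 0.524 CPM in control superficial zone (−0.68 ± 0.87, edgeR adjusted p = 0.738). IL7R was at 0.138, 0.292 and 0.162 CPM in OA superficial zone, against 0, 0.382 and 0.839 CPM in control superficial zone (−1.02 ± 0.97, edgeR adjusted p = 0.671). The groups overlapped for each gene. SLAMF6 rested on 8 counts in OA and 12 in control, and IL7R on 9 in OA and 13 in control. Over the 6 genes 4 were positive with a median of 1.37, beside 0.05 over all genes. No gene of the 13 lists passed in the superficial zone in edgeR. Among the 3 most abundant of each lymphocyte list, IGHM had 2.33 ± 1.40 (edgeR adjusted p = 0.555) and CIITA 1.79 ± 0.88 (0.481). NKG7 had 2.97 ± 1.19 (0.392), on 29 counts in OA and 4 in control. BTK had 1.24 ± 0.58, LCK 1.32 ± 1.09, LAT 0.865 ± 0.698, CD37 0.82 ± 0.52 and EBF1 0.79 ± 0.45. Smaller or negative values were those of PRDM1 (0.45 ± 0.39), ARPP21 (0.255 ± 0.963), TCF7 (0.12 ± 0.51), SDC1 (−0.02 ± 0.49) and IGLL1 (−0.24 ± 2.40).

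Whether the OA effect differed between the zones was tested as an interaction, and no gene of 14438 passed in edgeR (0% called; 8.76% at an unadjusted p under 0.05; 116 genes in DESeq2). SLAMF6 had the largest difference among the members, 4.27 ± 1.15 for the effect in cartilage minus that in the superficial zone (edgeR adjusted p = 0.378; 0.0463 with 12 separate libraries, and 0.0813 when these had a replicate block). It was the 1 member with an unadjusted p under 0.05. The others had differences of 2.00 ± 2.09 for MS4A1, 0.91 ± 1.28 for PAX5, 0.78 ± 1.20 for IL7R, 0.49 ± 1.22 for JCHAIN and −1.68 ± 2.65 for CD79B (edgeR adjusted p = 0.755 to 0.897). Without both libraries that went against their labels, 1 OA superficial zone sample was left, and PAX5 had a difference of 4.26. CD79B then had 7.53, a value set by 0 counts in both control cartilage libraries left.

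Between the zones in OA, SLAMF6 and IL7R were higher in cartilage, 2 of 6 members, where 2.38% of genes were called higher and 6.48% in either direction. SLAMF6 was at 3.73 to 10.03 CPM in OA cartilage and 0.117 to 0.414 CPM in OA superficial zone, a log2 fold change of 4.87 ± 0.90 (edgeR adjusted p = 0.0140). This call held in all 19 other fits, with an adjusted p of 6.01e-05 to 0.0462. IL7R was at 2.45 to 3.25 CPM in OA cartilage and 0.138 to 0.292 CPM in OA superficial zone (3.85 ± 1.00, edgeR adjusted p = 0.0447). All 6 genes were positive, 5 did not overlap between the zones (27.4% of all genes did not overlap and were higher), and the median was 3.32 beside 0.01 over all genes. JCHAIN (2.36 ± 0.85, edgeR adjusted p = 0.110), MS4A1 (4.06 ± 1.29, 0.0797) and CD79B (2.79 ± 1.75, 0.307) were not past the test, and PAX5 overlapped between the zones (0.92 ± 0.99, 0.546). With 12 separate libraries MS4A1 and JCHAIN passed as well, 4 members in all, and as many with a replicate block. Without both libraries that went against their labels 5 passed, among them PAX5 (2.45, edgeR adjusted p = 0.0177), while IL7R did not (0.0551).

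Between the zones in control, IL7R alone of the 6 passed, where 3.22% of genes were called higher and 7.49% in either direction. IL7R was at 3.801, 2.56 and 4.16 CPM in control cartilage, against 0, 0.382 and 0.839 CPM in control superficial zone (3.07 ± 0.79, edgeR adjusted p = 0.0354). Its 6 cartilage libraries, OA and control, all lay between 2.45 and 4.16 CPM, and its 6 superficial zone libraries between 0 and 0.839 CPM. The call in OA was lost without control superficial zone 2 or 3, control cartilage 1 or 2, OA superficial zone 1 or 3 or OA cartilage 3 (edgeR adjusted p = 0.0511 to 0.169) and with library totals only (0.0557). The call in control was lost without control superficial zone 1 or 2, any 1 of the control cartilage libraries or OA cartilage 3 (edgeR adjusted p = 0.0511 to 0.163) and with library totals only (0.0647), while the fold change stayed between 2.49 and 4.19 in these leave-1-out fits of both states.

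The other members did not pass between the zones in control. JCHAIN was at 0.608, 0.879 and 2.36 CPM in control cartilage, against 0.334, 0.382 and 0.315 CPM in control superficial zone, without overlap (1.87 ± 0.81, edgeR adjusted p = 0.237). JCHAIN and IL7R were the 2 of 6 that did not overlap and were higher, beside 12.6% of all genes. SLAMF6 had 0.59 ± 0.74 (adjusted p = 0.784). PAX5 had 0.00 ± 0.82 (edgeR adjusted p = 1.00), and −1.83 (0.154) without control cartilage 3; without OA superficial zone 1 as well it was lower in control cartilage (−1.81, 0.0202). Leaving out control cartilage 3 left it at 1.22 and 1.54 CPM in control cartilage and 3.46 to 6.46 CPM in control superficial zone. For MS4A1 the ratio on 12 counts and 3 counts was 4.34 (95% interval 1.17 to 23.9) and for CD79B on 24 counts and 1 count 26.0 (4.24 to 1070), both resting mostly on control cartilage 3.

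Other genes of the lymphocyte lists also separated the zones. In OA, BTK (2.45 ± 0.62, edgeR adjusted p = 0.0416) and the B cell receptor inhibitor CD22 (3.43 ± 0.88, 0.0441) were higher in cartilage, 2 of 13 B cell genes. In control, BTK (2.11 ± 0.53, edgeR adjusted p = 0.0329), CD22 (2.82 ± 0.77, 0.0472) and the adaptor BLNK (1.69 ± 0.42, 0.0301) were higher, 3 of 13. CD22 was at 5.35 to 11.8 CPM in OA cartilage, 1.54 to 4.38 CPM in control cartilage, 0.117 to 1.38 CPM in OA superficial zone and 0.153 to 0.669 CPM in control superficial zone. Of 9 plasma cell genes, SDC1 was lower in cartilage in OA (−2.07 ± 0.56, edgeR adjusted p = 0.0489) and in control (−2.0 ± 0.45, 0.0196). PRDM1 was higher in control cartilage (2.35 ± 0.37, edgeR adjusted p = 0.00309), and MZB1, a chaperone of antibody secretion, was higher in OA cartilage at 48 counts against 0 in OA superficial zone, at least 13.5-fold with the floor of 3 counts taken over the group (adjusted p = 0.0411).

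Some leukocyte genes shared with myeloid cells also differed between the zones. All 8 pan-leukocyte genes were positive in OA and 7 in control, where the lowest log2 fold change was −1.40. Of 8 pan-leukocyte genes, LCP1 (2.86 ± 0.40), CD48 (2.93 ± 0.57) and PTPRC, the common leukocyte antigen CD45 (2.35 ± 0.47), were higher in OA cartilage than in OA superficial zone, and LCP1 (2.78 ± 0.33), RAC2 (3.22 ± 0.69), PTPRC (1.78 ± 0.39) and CORO1A (2.26 ± 0.54) were higher in control cartilage than in control superficial zone. Of 12 macrophage genes, C1QC (−2.43 ± 0.52) and C1QB (−2.63 ± 0.70) were lower in OA cartilage. In control cartilage C1QC (−2.36 ± 0.44), C1QB (−2.73 ± 0.61) and MRC1 (−1.97 ± 0.45) were lower, and CD68 (2.71 ± 0.52) and CSF1R (1.75 ± 0.45) were higher. Of 7 endothelial genes VWF was lower in OA cartilage (−3.51 ± 0.76), and KDR (1.99 ± 0.28), CDH5 (1.87 ± 0.34) and TEK (2.09 ± 0.39) were higher in control cartilage. EPB42 (3.98 ± 0.85) and ALAS2 (3.60 ± 0.86) of the erythroid list were higher in OA cartilage than in OA superficial zone. No neutrophil and marrow, precursor, cytotoxic, homing, cartilage or skeletal muscle gene passed between the zones in edgeR. The part of these cell types in the IL7R and SLAMF6 values was not tested.

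The genes most like JCHAIN and MS4A1 in log2 CPM over the 10 samples were ranked, as a description, by Pearson's r among genes with a symbol and a mean of at least 1 CPM. For JCHAIN they were EPOR, the erythropoietin receptor (0.981), IL32, a cytokine known from human (0.978) and PIGR, which carries J chain antibody across epithelia (0.977). For MS4A1 they were ERMAP, a red cell membrane protein (0.988), PIGR (0.977) and GFI1B, a factor of red cell and platelet precursors (0.972). PIGR was at 3.59 to 11.7 CPM in OA cartilage and 0 to 0.690 CPM in the other 9 libraries, and ERMAP at 32.9 to 122 CPM and 0.608 to 13.0 CPM. The OA cartilage samples stood apart from the rest in each of these genes, so the correlations are set largely by that group. The T cell genes fixed for this ranking, CD3E and CD2, gave none.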

How the data were processed

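Bulk RNA-seq of 12 libraries was used. The submitters' processing notes name, in no stated role or order, Salmon 1.1.0 and StringTie 2.1.0, the aligner STAR 2.7.9a, MultiQC 1.13, Trim Galore 0.6.7 and DESeq2 1.26.0, and the build OryCun2.0. The authors deposited estimated counts in whole numbers, which the file headers call both normalised and raw; totals differed between libraries, and they were used as raw. The deposited TPM values (transcripts per 1000000) and feature lengths, whose unit is a base length, stand beside them. Which filter left 14621 genes is not given in the sources used here, and every gene had a highest count of at least 11. Symbols came from the table for 9813 genes and through Entrez identifiers from RefSeq (mOryCun1.1) for 1075.

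All 4 groups entered 1 quasi-likelihood model in edgeR 4.0.16 (R 4.3.3) with TMM scaling, and filterByExpr at a minimum count of 10 kept 14438 genes. Benjamini-Hochberg adjustment ran over those genes, and an adjusted p under 0.05 passed. SEs are approximate: the size of the log2 fold change over the root of its F value. Near-duplicate libraries (pairwise coefficient of variation under 0.1) were summed, leaving 10 samples. DESeq2 1.42.0 was an alternative. The edgeR step was tested on simulated data. No label ties a replicate to an animal, so p-values reflect only how these samples vary, which may be technical.

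The members, lists, tests and alternatives were chosen with earlier results of these data known. Named genes are the members, list genes past the test (at most 5 per list and comparison), the 3 most abundant of each lymphocyte list, and the 3 genes most like JCHAIN and MS4A1. Others are said to be named after their values were seen. The main fit did not pair libraries by replicate number, and whether libraries share an animal is not known. A list gene past the test is not reported here.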

Additional observations from a re-analysis of the deposited data

Results flagged for a closer look

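KDR, an endothelial receptor for VEGF, was singled out because every OA sample lay on the other side of control in each zone. It was at 60.5, 61.4 and 55.5 CPM in OA cartilage, against 107.7, 81.6 and 107.6 CPM in control cartilage, and at 48.6, 30.2 and 28.2 CPM in OA superficial zone, against 25.1, 24.1 and 25.5 CPM in control superficial zone. The difference between the OA effects was −1.40 (log2, cartilage minus superficial zone), which did not pass in edgeR (adjusted p = 0.435).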

How the results depend on the processing

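The number of genes past the edgeR test moved widely. For OA against control in the superficial zone it was 3, against 163 with 12 separate libraries, 0 with library totals only, 288 in DESeq2, 285 without both libraries that went against their labels, and 0 to 51 leaving out 1 library. In cartilage it was 125, against 441, 351 in DESeq2, 667 without both libraries and 0 to 224 leaving out 1. For the difference between zones it was 0, against 98, 116 in DESeq2 and 97 without both. Between zones it was 935 in OA, against 2879, 2102 in DESeq2, 1751 without both and 104 to 1402 leaving out 1, and 1081 in control, against 2452 without both and 486 to 1816 leaving out 1. Fits without both libraries rest on 1 OA superficial zone sample, assumed to vary like the other groups. Scaling by library totals put the median of all genes at −0.24 in place of 0.05 for OA in the superficial zone, and at 0.23 in place of −0.03 in cartilage (log2). In OA between zones the calls were then 338 higher and 302 lower, against 343 and 592.

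Of the lymphocyte members, 3 passed in OA cartilage with 12 separate libraries and in DESeq2, 5 without both libraries, and 0 to 1 leaving out 1. For the difference between zones 1 passed with 12 libraries and 1 without both. Between zones in OA 4 passed with 12 libraries, 1 with library totals, 5 without both and 1 to 3 leaving out 1. In control 0 passed with library totals, 2 without both and 0 to 1 leaving out 1. Of 570 member fold changes under alternatives, 508 kept direction and side of the threshold, 22 lost the test, 21 gained it and 19 turned sign. None of those 19 had passed in the fit as reported; PAX5 between zones in control passed with its sign turned (−1.81, edgeR adjusted p = 0.0202) without both libraries. The signs that turned were those of PAX5 for OA in the superficial zone (−0.089 with library totals, −1.11 without both, −1.08 to 0.57 leaving out 1), IL7R for OA in cartilage (0.017 with library totals) and for the difference (−0.11 to 1.37 leaving out 1), and CD79B for the difference (7.53 without both, −3.98 to 5.21 leaving out 1). Between zones in control they were those of PAX5 (−0.27 with library totals, −1.81 without both, −1.83 to 0.45 leaving out 1), MS4A1 (−0.013 to 3.03 leaving out 1) and CD79B (−2.45 without both, −2.37 to 6.83 leaving out 1). The cause was not tested. Median-of-ratios factors and no filter changed no count of members.

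Same-numbered libraries did not deviate together throughout: 7 of 18 pairs correlated over 0.1 (r −0.28 to 0.31). With 3 libraries per group and near-duplicates among them, this check cannot exclude shared animals. A replicate block needs 12 separate libraries. With this block 132, 324, 92, 2445 and 1306 genes passed in the 5 comparisons in the order above, with 0, 1, 0, 4 and 1 of the members. Against 12 libraries without a block, JCHAIN and MS4A1 lost the test in OA cartilage and SLAMF6 lost it for the difference. PAX5 then had −0.11 for OA in the superficial zone and −0.039 between zones in control. Deposited TPM in place of CPM gave a median summed member level of 108 against 59.7 in OA cartilage. Depth limits the low members: a count of 0 allows up to 0.456 CPM in the shallowest library.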
